A study of Mus musculus with 18 samples.

Results

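The ERBB receptor family was described in mouse mammary cells as the 4 genes Egfr, Erbb2, Erbb3 and Erbb4, chosen by name, out of 19938 genes measured. Each gene was read by 1 probe set that the array annotation assigns to it alone, namely 10374366 for Egfr, 10380896 for Erbb2, 10373467 for Erbb3 and 10355278 for Erbb4. A further probe set that names Erbb2 together with another gene was not used. RNA was hybridised to 18 whole-transcript mouse arrays, 3 in each of 6 groups. The Comma-D group was an unmixed line of normal mouse mammary epithelium, labelled normal, without erbB2 and without phosphorylated erbB2. It was kept in DMEM/F12 medium with 2% FBS, 10 ug/ml insulin and 5 ng/ml EGF. The MMTV-neu group was an unmixed mammary tumour line, labelled cancer, with erbB2 and phosphorylated erbB2, and it was kept in DMEM with 10% FBS, for which no EGF or insulin is listed. The remaining groups came from co-cultures of both lines at 1:50 or 1:1 in the Comma-D medium. An anti-erbB2 antibody and magnetic beads separated each co-culture into an erbB2-positive and an erbB2-negative fraction. The 1:50 erbB2-positive fraction is labelled redirected, with erbB2 but without its phosphorylated form. The 1:1 erbB2-positive fraction is labelled cancer, with both, and both erbB2-negative fractions are labelled normal. The titles write 1 beside Comma-D and 50 beside the sorted fraction, and no direction of that ratio is assumed here.

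ERBB receptors are tyrosine kinases that span the cell membrane, pair with one another when a ligand binds, and pass growth signals to the RAS-ERK and PI3K-AKT pathways. Egfr binds EGF and its relatives, Erbb3 and Erbb4 bind neuregulins, Erbb2 has no known ligand of its own, and Erbb3 has little kinase activity and signals mainly through its partners. In the mammary gland these receptors act in ductal growth and milk production, and Erbb2, also called neu, is an oncogene when mutated or present in excess. In MMTV-neu mice a rat neu transgene is expressed from a mammary tumour virus promoter. How far the mouse probe set for Erbb2 reads rat neu was not tested, and the probe sets measure RNA, not receptor on the cell surface or its phosphorylation.

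The start regions of Egfr and Erbb2 are shown because the transgene stands under another promoter, so that these sequences belong to the mouse genes alone. Both genes lie on chromosome 11, on the forward strand, in the RefSeq annotation of GRCm38.p6. Of the 4 genes 3 had an entry in the RefSeq table used, and Erbb3 did not. Each line gives the 250 bases before the annotated start, 5′ to 3′, for Egfr at chr11:16751953-16752202 and for Erbb2 at chr11:98412234-98412483. Capitals mark a GC box (CCGCCC, the reverse strand of GGGCGG) in Egfr and a CCAAT box in Erbb2.
Egfr: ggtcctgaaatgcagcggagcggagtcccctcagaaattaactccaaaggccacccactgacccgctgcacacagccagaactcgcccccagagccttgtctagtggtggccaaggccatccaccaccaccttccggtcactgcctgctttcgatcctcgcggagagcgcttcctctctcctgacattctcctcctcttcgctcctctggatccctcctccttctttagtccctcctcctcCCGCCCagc
Erbb2: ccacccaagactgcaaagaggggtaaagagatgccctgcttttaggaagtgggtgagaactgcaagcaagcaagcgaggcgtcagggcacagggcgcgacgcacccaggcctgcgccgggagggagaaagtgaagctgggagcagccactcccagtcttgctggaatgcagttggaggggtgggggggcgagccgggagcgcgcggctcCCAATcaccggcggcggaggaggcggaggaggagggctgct
The GC box of Egfr begins at position -9 and the CCAAT box of Erbb2 at position -41 from the start. In windows of 300 bases, 250 before and 50 after the start, GGGCGG on either strand occurred in 35.7% of 32851 windows, CCAAT in 37.4% and TATAAA in 13.6%. These 3 motifs do not overlap one another in the windows of Egfr and Erbb2, TATAAA was in neither, and the Erbb4 window held none of the 3. G and C made up 62.3% of the Egfr window and 66.0% of the Erbb2 window, against a median of 52.7% over all windows. No measurement on these arrays bears on binding at the motifs.

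Values are log2 signals as deposited, and a difference of 1 is a change by a factor of 2. Differences come from 1 limma fit of all 18 arrays, with p adjusted by Benjamini-Hochberg over 19938 genes, and a gene is called at an adjusted p under 0.05. The labels do not say that replicates were separate cultures, so p-values measure the spread between these samples, which may be technical. A fraction is a bulk sample, in which fewer cells of a line and less RNA per cell cannot be told apart. Line and medium cannot be told apart in any comparison with MMTV-neu. The arrays themselves differed between groups. The spread of gene values within an array (SD) was 1.97 to 1.99 in Comma-D and 1.51 to 1.55 in MMTV-neu, and the mean of 9 reference genes of general metabolism was 10.37 and 8.95. Olfactory receptor genes, 1027 in number and not known to act in mammary cells, served as a gauge of signal without expression, and their median was 0.53 higher in MMTV-neu than in Comma-D. Each comparison was therefore repeated with arrays centred on the reference genes and after quantile normalization. Centring raised the median of all genes in MMTV-neu minus Comma-D by 1.42, to 1.82, with 81.8% of genes called higher. Receptor differences whose direction turned under either scaling are listed in the last section, and only some of them also with the result.

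The receptors separated the groups in different ways. As deposited, Egfr was low in MMTV-neu and in the 1:1 erbB2-positive fraction and high in the other 4 groups. Erbb3 was low in MMTV-neu and in both 1:1 fractions, whatever their sort. Erbb2, the antigen of the sort, was lowest in both 1:1 fractions and did not differ by a called amount between the fractions of either co-culture as deposited, though it did at 1:1 under both other scalings. With centring that 1:1 difference (0.75) lay below the median of all genes (0.83). With centring on the reference genes, Egfr and Erbb3 were not called in MMTV-neu against Comma-D, and Erbb2 was called higher there, as were 81.8% of all genes. Erbb4 did not stand above the olfactory receptor level in any group.

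**Figure D1:**
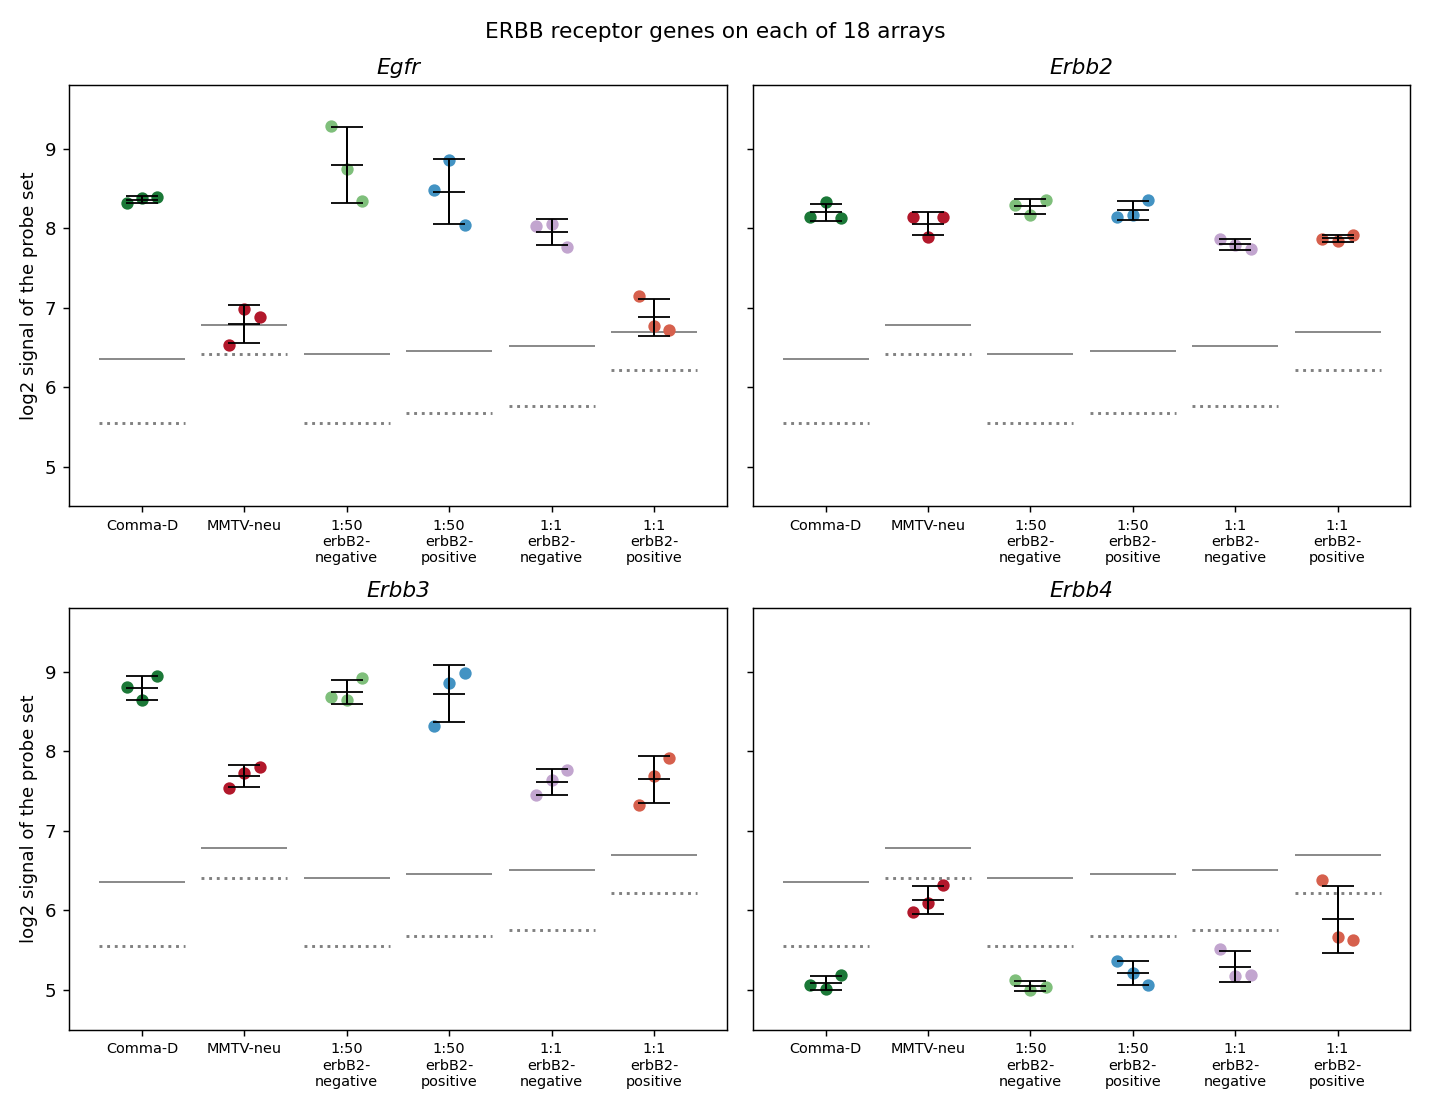
Log2 signal of the probe set of each ERBB gene on each of 18 arrays, by group. Points are arrays, black bars the mean and SD of 3 arrays, grey solid lines the median of all genes and grey dotted lines the 95th percentile of olfactory receptor genes in that group. Egfr is low in MMTV-neu and the 1:1 erbB2-positive fraction, and all Erbb4 means lie under the dotted lines.

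Egfr, the receptor of EGF, read 8.31, 8.37 and 8.39 on the Comma-D arrays and 6.53, 6.98 and 6.88 on the MMTV-neu arrays. In the erbB2-positive fractions it read 8.48, 8.86 and 8.04 at 1:50 and 7.15, 6.77 and 6.71 at 1:1. In the erbB2-negative fractions it read 9.29, 8.75 and 8.34 at 1:50 and 8.02, 8.06 and 7.76 at 1:1. The arrays of MMTV-neu and of the 1:1 erbB2-positive fraction overlapped each other and lay below every other array. The 1:50 fractions overlapped Comma-D and varied most, with SDs of 0.48 (erbB2-negative) and 0.41 (erbB2-positive, n = 3) beside 0.04 in Comma-D. In rank, Egfr stood above 76.6% of genes in Comma-D and above 50.4% in MMTV-neu.

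Egfr fell by 1.56 in MMTV-neu against Comma-D (SE 0.22, 95% interval -2.02 to -1.10, limma adjusted p = 4.5e-06), a level 2.95-fold lower. After quantile normalization it fell by 1.44 (adjusted p = 3.66e-05), and with centring the difference was -0.14 and not called (adjusted p = 0.632). Egfr also fell by 1.48 in the 1:1 erbB2-positive fraction against Comma-D (SE 0.22, adjusted p = 1.29e-05), by 1.23 after quantile normalization and with a difference of -0.39 that was not called with centring (adjusted p = 0.184). Against MMTV-neu that fraction differed by 0.08 (95% interval -0.38 to 0.54, adjusted p = 0.815). The 1:50 erbB2-positive fraction instead lay 1.66 above MMTV-neu (SE 0.22, adjusted p = 4.26e-06), or 0.49 with centring (adjusted p = 0.0982), and differed from Comma-D by 0.10 (95% interval -0.36 to 0.56, adjusted p = 0.827). Of the erbB2-negative fractions, neither was called against Comma-D, with differences of 0.43 (adjusted p = 0.636) at 1:50 and -0.41 (adjusted p = 0.142) at 1:1. In a fit of those groups alone the second was called (adjusted p = 0.04). Both rose against MMTV-neu, by 1.99 at 1:50 and by 1.15 at 1:1 (adjusted p = 3.76e-07 and 0.000203). With centring the first was 0.60 (adjusted p = 0.045), and the second was 0.14 and not called (adjusted p = 0.622).

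Within the 1:1 co-culture Egfr fell by 1.07 in the erbB2-positive fraction against the erbB2-negative one (SE 0.22, adjusted p = 0.00118), with no overlap between arrays, and by 1.15 after quantile normalization (adjusted p = 0.0013). With centring the difference was -0.40 (adjusted p = 0.185). Within the 1:50 co-culture the difference was -0.33 (95% interval -0.79 to 0.13, adjusted p = 0.492), and with array weights, which called 35.2% of all genes, it was -0.70 and called (adjusted p = 0.000821). The difference between these differences was 0.74 (SE 0.31, limma adjusted p = 0.177) and was not called. With array weights, which called 69.8% of all genes, it was 0.56 and called (adjusted p = 0.0127). Between ratios, Egfr was 1.58 higher in the 1:50 than in the 1:1 erbB2-positive fraction (adjusted p = 2.05e-05), and 0.74 higher with centring (adjusted p = 0.0163). It was 0.84 higher in the 1:50 than in the 1:1 erbB2-negative fraction (adjusted p = 0.0137), a call lost without 1:50 erbB2-negative replicate 1 (0.60, adjusted p = 0.0584), with centring (0.45, adjusted p = 0.176) and after quantile normalization (0.46, adjusted p = 0.232).

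Erbb3, which pairs with Erbb2 to activate PI3K, read 8.81, 8.65 and 8.95 in Comma-D and 7.54, 7.73 and 7.81 in MMTV-neu. At 1:50 it read 8.32, 8.86 and 8.99 in the erbB2-positive and 8.68, 8.65 and 8.92 in the erbB2-negative fraction. At 1:1 it read 7.33, 7.69 and 7.92 in the erbB2-positive and 7.45, 7.63 and 7.77 in the erbB2-negative fraction. All 9 arrays of Comma-D and the 1:50 fractions lay above all 9 arrays of MMTV-neu and the 1:1 fractions, and within each of these sets the groups overlapped.

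Against Comma-D, Erbb3 fell by 1.11 in MMTV-neu (SE 0.17, 2.16-fold, limma adjusted p = 1.3e-05), by 1.18 in the 1:1 erbB2-negative fraction (SE 0.17, adjusted p = 0.000185) and by 1.15 in the 1:1 erbB2-positive fraction (SE 0.17, adjusted p = 1.36e-05). Quantile normalization kept these 3 calls at smaller sizes of -0.48, -0.81 and -0.59. Centring kept the fall in the 1:1 erbB2-negative fraction (-0.77, adjusted p = 0.00624), left the 1:1 erbB2-positive fraction at -0.07 (adjusted p = 0.725) and turned MMTV-neu to 0.31 (adjusted p = 0.0908). The 1:50 fractions differed from Comma-D by -0.05 (erbB2-negative, 95% interval -0.41 to 0.31) and -0.08 (erbB2-positive, 95% interval -0.44 to 0.28), neither called (adjusted p = 1 and 0.827). Against MMTV-neu they were higher by 1.06 and 1.03 (adjusted p = 2.25e-05 and 3.91e-05), by 0.44 and 0.59 after quantile normalization (adjusted p = 0.0219 and 0.00402), and centring turned both to -0.34 and -0.15 (adjusted p = 0.0659 and 0.427). The 1:1 fractions differed from MMTV-neu by -0.07 (erbB2-negative) and -0.04 (erbB2-positive), not called (adjusted p = 0.697 and 0.873). With centring the former was -1.08 and called (adjusted p = 3.52e-06), where the median of all genes was -1.36.

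The sort left Erbb3 without a called difference in either co-culture, as deposited. The erbB2-positive minus erbB2-negative difference was -0.02 at 1:50 (95% interval -0.39 to 0.34, adjusted p = 0.951) and 0.03 at 1:1 (95% interval -0.33 to 0.39, adjusted p = 0.887). With centring the second was 0.70 and called (adjusted p = 0.000927), while quantile normalization gave 0.22 (adjusted p = 0.281). At 1:1 the median of all genes was 0.83 with centring and 0.09 after quantile normalization. With array weights the 1:50 difference was 0.25 and called (adjusted p = 0.0247). The ratio separated Erbb3 by 1.08 between the erbB2-positive fractions (SE 0.17, adjusted p = 6.54e-05) and by 1.13 between the erbB2-negative fractions (SE 0.17, adjusted p = 0.00126), higher at 1:50 in both. The difference between erbB2-negative fractions was 0.74 with centring (adjusted p = 0.0225) and 0.77 after quantile normalization (adjusted p = 0.0193). In a fit of those 6 arrays alone it was not called (adjusted p = 0.0552). The difference between erbB2-positive fractions was 0.70 after quantile normalization (adjusted p = 0.0017) and 0.23 with centring, where it was not called (adjusted p = 0.21).

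Erbb2, the receptor without a ligand of its own and the antigen used to sort the cells, spanned 0.48 between the lowest and the highest group mean as deposited and 0.63 after quantile normalization, against 1.99 and 1.82 for Egfr and 1.18 and 0.92 for Erbb3. With centring the order turned, at 1.28 for Erbb2, 1.08 for Erbb3 and 0.85 for Egfr. It read 8.15, 8.32 and 8.12 in Comma-D, labelled erbB2-negative, and 8.14, 7.89 and 8.14 in MMTV-neu, labelled erbB2-positive. The erbB2-positive fractions read 8.14, 8.16 and 8.36 at 1:50 and 7.87, 7.83 and 7.92 at 1:1. The erbB2-negative fractions read 8.30, 8.17 and 8.36 at 1:50 and 7.87, 7.79 and 7.74 at 1:1. Arrays labelled erbB2-positive and erbB2-negative overlapped between the lines and within each co-culture, and all 6 arrays of the 1:1 fractions lay below all arrays of Comma-D and the 1:50 fractions.

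Erbb2 differed by -0.14 between MMTV-neu and Comma-D (SE 0.10, 95% interval -0.35 to 0.07, limma adjusted p = 0.184), and the direction turned with the scaling, to 1.28 with centring (adjusted p = 9.24e-07) and 0.52 after quantile normalization (adjusted p = 8e-04). The median of all genes was 1.82 and 0.23 under these scalings, with 81.8% and 48.4% of genes called higher. In rank within the arrays Erbb2 stood above 74.3% of genes in Comma-D and above 84.6% in MMTV-neu. Against Comma-D it fell by 0.40 in the 1:1 erbB2-negative fraction (adjusted p = 0.00697) and by 0.32 in the 1:1 erbB2-positive fraction (adjusted p = 0.00649). With centring these were 0.02 (adjusted p = 0.952) and 0.76 (adjusted p = 0.000727), and after quantile normalization -0.11 (adjusted p = 0.542) and 0.22 (adjusted p = 0.107). The centred median of all genes was 0.45 and 1.27 in these comparisons. Erbb2 was also 0.35 higher in the 1:50 than in the 1:1 erbB2-positive fraction (adjusted p = 0.00496), which turned to -0.49 with centring (adjusted p = 0.0203) and -0.05 after quantile normalization (adjusted p = 0.701). The centred median of all genes was -1.03 there. Between the erbB2-negative fractions Erbb2 was 0.48 higher at 1:50 (adjusted p = 0.00596), not called with centring (0.09, adjusted p = 0.735) or after quantile normalization (0.16, adjusted p = 0.412).

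Between sorted fractions Erbb2 differed by -0.05 at 1:50 (95% interval -0.26 to 0.16, adjusted p = 0.813) and by 0.08 at 1:1 (95% interval -0.13 to 0.28, adjusted p = 0.513). The 1:1 difference was called under both other scalings, at 0.75 with centring (adjusted p = 0.00118) and 0.33 after quantile normalization (adjusted p = 0.0352). The median of all genes was 0.83 and 0.09 there under these scalings, with 74.8% and 23.2% of genes called higher. The 1:50 difference was not called under either, at 0.17 (adjusted p = 0.585) and 0.11 (adjusted p = 0.982). Against MMTV-neu the 1:50 erbB2-positive fraction differed by 0.17 (adjusted p = 0.127), which turned to -1.01 with centring (adjusted p = 2.76e-05) and -0.36 after quantile normalization (adjusted p = 0.0133). The 1:50 erbB2-negative fraction was 0.22 higher than MMTV-neu (adjusted p = 0.0466), turning to -1.18 and -0.47 under these scalings. The 1:1 erbB2-negative fraction was 0.26 lower than MMTV-neu (-0.26, adjusted p = 0.024), and -1.27 and -0.63 under them. The centred median of all genes was -1.57, -1.80 and -1.36 in these comparisons with MMTV-neu, in the order given. Both calls of the erbB2-negative fractions, as deposited, were lost when single arrays were left out. The call for the 1:50 erbB2-negative fraction was lost without MMTV-neu replicate 2 (0.14, adjusted p = 0.209) and without 1:50 erbB2-negative replicate 1 (0.21, adjusted p = 0.101) or 3 (0.18, adjusted p = 0.155). The call for the 1:1 erbB2-negative fraction was lost without MMTV-neu replicate 1 (-0.22, adjusted p = 0.0704) or 3 (-0.22, adjusted p = 0.0778) and without 1:1 erbB2-negative replicate 2 (-0.25, adjusted p = 0.0595) or 3 (-0.23, adjusted p = 0.079).

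Erbb4, a neuregulin receptor that acts in milk production, read 5.06, 5.02 and 5.18 in Comma-D and 5.97, 6.10 and 6.32 in MMTV-neu. It read 5.37, 5.22 and 5.06 in the 1:50 and 6.38, 5.67 and 5.63 in the 1:1 erbB2-positive fraction. The erbB2-negative fractions read 5.12, 5.00 and 5.04 at 1:50 and 5.52, 5.18 and 5.19 at 1:1. Every group mean lay under the 95th percentile of olfactory receptor genes in its group, with that percentile at 5.55 for Comma-D, 6.41 for MMTV-neu and 6.22 for the 1:1 erbB2-positive fraction. The call of 1.04 for MMTV-neu against Comma-D (SE 0.16, limma adjusted p = 1.7e-05) therefore concerns signal that did not stand above that level. It was 2.47 with centring and 0.58 after quantile normalization, and 938 of 1027 olfactory receptor genes were called higher in this comparison too. The same holds for the 1:1 erbB2-positive fraction, 0.80 above Comma-D (adjusted p = 0.000305) and 0.60 above the 1:1 erbB2-negative fraction (adjusted p = 0.0069), where 567 and 322 olfactory receptor genes were called higher. The last value was 0.35 without 1:1 erbB2-positive replicate 1 (adjusted p = 0.0427), the array that read 6.38. Against MMTV-neu that fraction differed by -0.24 (adjusted p = 0.312), and without the same array by -0.48, which was called (adjusted p = 0.0185). No group showed an Erbb4 signal above the olfactory receptor level on these arrays.

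**Figure D2:**
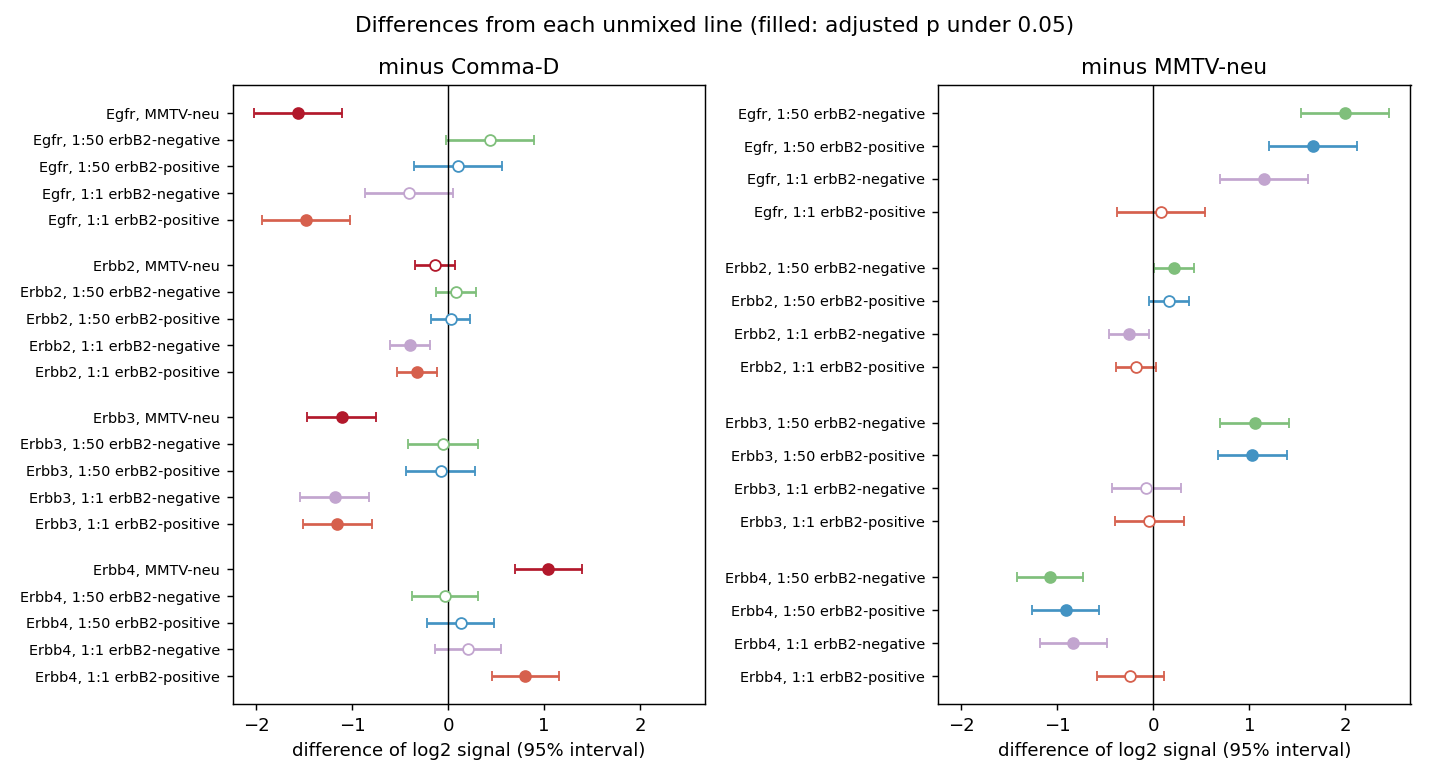
Differences of log2 signal between each group and Comma-D (left) and between each fraction and MMTV-neu (right), for the 4 ERBB genes. Points are limma estimates with 95% intervals, 3 arrays against 3, filled where the adjusted p is under 0.05. Values are as deposited. Egfr in the 1:50 erbB2-positive fraction lies at 0.10 from Comma-D and 1.66 from MMTV-neu. Erbb3 lies at -0.07 from MMTV-neu in the 1:1 erbB2-negative and at -0.04 in the 1:1 erbB2-positive fraction.

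Counts of called members were read against the share of all genes called, since large shares of the array moved. Between MMTV-neu and Comma-D 3 of 4 members were called, beside 86.8% of all genes. Against Comma-D, limma called 0 of the 4 in the 1:50 erbB2-negative fraction (1.68% of all genes) and 0 in the 1:50 erbB2-positive fraction (5.71%), and 0 had an unadjusted p under 0.05 in either. In the 1:1 erbB2-negative fraction 2 were called (35.7%), and in the 1:1 erbB2-positive fraction 4 were called (78.3%). Against MMTV-neu the counts were 4 in the 1:50 erbB2-negative (87.5%), 3 in the 1:1 erbB2-negative (78%), 3 in the 1:50 erbB2-positive (83.4%) and 0 in the 1:1 erbB2-positive fraction (18.3%), where limma also gave 0 at an unadjusted p under 0.05. Between sorted fractions limma called 0 at 1:50 (0.01%) and 2 at 1:1 (56.1%). At 1:50 also 0 had an unadjusted p under 0.05, beside 13.4% of all genes. For the difference between the 1:50 and 1:1 differences limma called 0 (2.75%), and 1, Egfr, had an unadjusted p under 0.05. With array weights these counts were 2 at 1:50 and 2 for the difference between differences, in a fit that called 35.2% and 69.8% of all genes there. Between ratios 4 were called for the erbB2-positive (71.4%) and 3 for the erbB2-negative fractions (30.3%). Across both, 2 were called for 1:50 erbB2-positive minus 1:1 erbB2-negative (1.5%) and 4 for 1:1 erbB2-positive minus 1:50 erbB2-negative (80.1%). Each of these counts has at most 4 members behind it. Counts at an unadjusted p under 0.05 have the matching share of all genes beside them only for the 1:50 sort. The others are not read as results. With shares of 71.4% and above, 3 or 4 called members lie near the background. Among comparisons with shares of 5.71% and below, only 1:50 erbB2-positive minus 1:1 erbB2-negative held called members. These were Erbb3, 1.11 higher (SE 0.17, adjusted p = 0.00524), and Erbb2, 0.43 higher (adjusted p = 0.0382). With the replicate number as a block 2.74% of all genes were called in that pair, and the same number of members. The Erbb2 call there was lost in 5 of 6 fits that left out 1 array, all but that without 1:50 erbB2-positive replicate 1, and neither was called in a fit of those 6 arrays alone (adjusted p = 0.455 for Erbb2 and 0.39 for Erbb3). The Erbb2 call was also lost with centring (adjusted p = 0.552), after quantile normalization (adjusted p = 0.445) and with trend and robust (adjusted p = 0.0969). Erbb3 stayed called under these settings (adjusted p = 0.0142, 0.0168 and 0.00438).

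**Figure D3:**
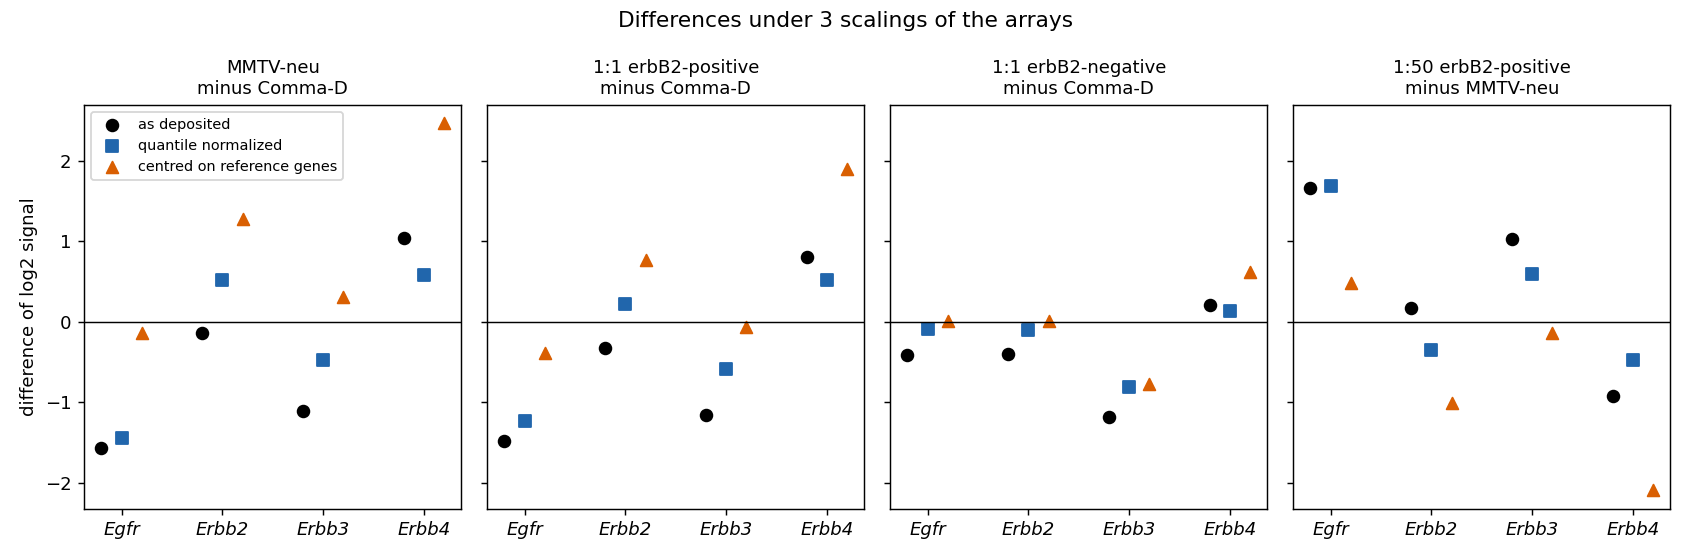
Differences of log2 signal of the 4 ERBB genes in 4 comparisons, under 3 scalings of the arrays. Circles are values as deposited, squares after quantile normalization and triangles with arrays centred on 9 reference genes. Erbb2 in MMTV-neu minus Comma-D runs from -0.14 to 1.28, while Erbb3 in the 1:1 erbB2-negative fraction minus Comma-D stays between -1.18 and -0.77.

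Differences between receptors on the same array do not move when all genes of an array shift by 1 amount. They do move with the spread of values within an array, which differed between the groups. Only their change between groups is read here, since levels of different probe sets cannot be set against each other. Their tests were exact permutation tests (two-sided), which with 3 against 3 arrays cannot give a p below 0.1. Egfr minus Erbb2 was 0.05 to 0.27 over the Comma-D arrays and -1.60 to -0.91 over the MMTV-neu arrays, a difference of -1.42 (exact p = 0.1). Between the erbB2-positive and the erbB2-negative fraction it differed by -1.14 at 1:1 (exact p = 0.1), again without overlap, and by -0.28 at 1:50 with overlap (exact p = 0.6). In the 1:50 erbB2-positive fraction it was 1.50 above MMTV-neu (exact p = 0.1, no overlap). Egfr minus Erbb3 differed with the sort by -1.10 at 1:1 (exact p = 0.1, no overlap) and by -0.31 at 1:50 (exact p = 0.6, overlap). Erbb2 minus Erbb3 was 0.97 higher in MMTV-neu than in Comma-D (exact p = 0.1). In the 1:1 erbB2-negative and erbB2-positive fractions it was 0.78 and 0.83 higher than in Comma-D (exact p = 0.1 each), without overlap. With the sort it differed by -0.03 at 1:50 and 0.05 at 1:1 (exact p = 0.9 and 0.8).

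**Figure D4:**
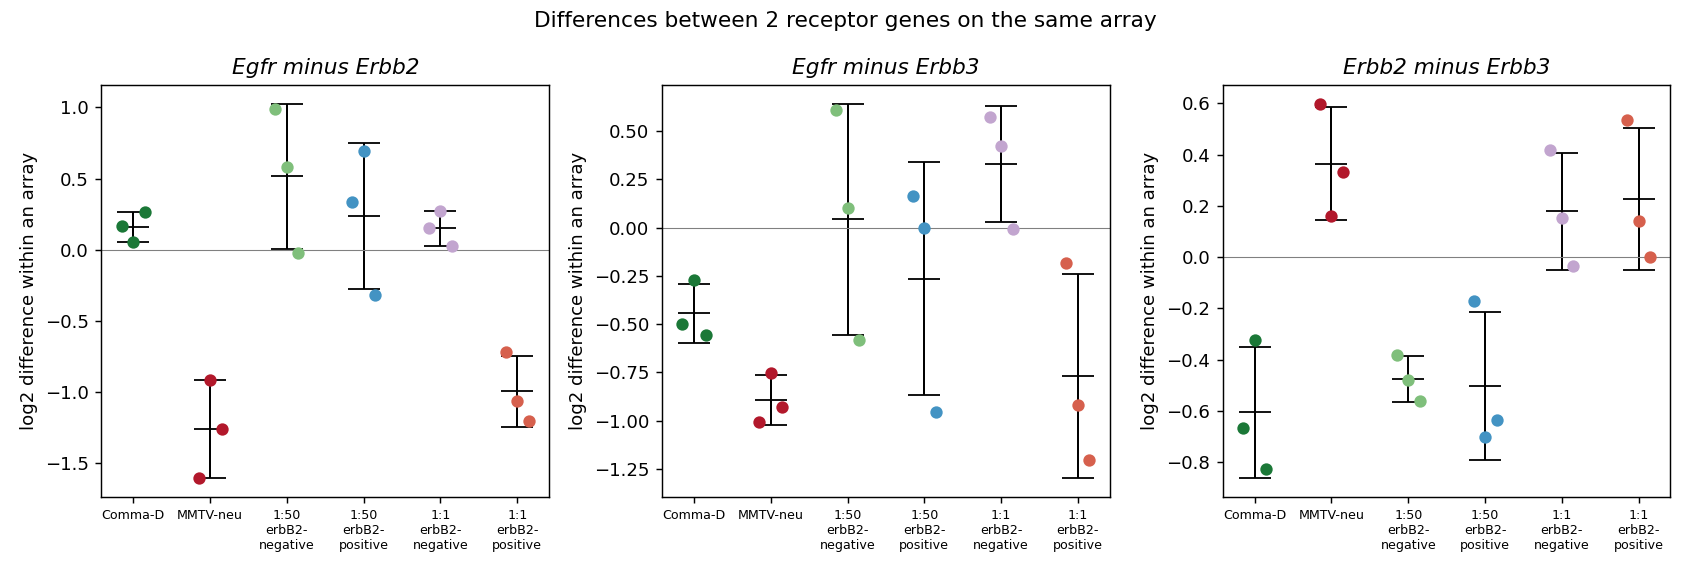
Log2 difference between a pair of ERBB genes on the same array, for Egfr minus Erbb2, Egfr minus Erbb3 and Erbb2 minus Erbb3, by group. Points are arrays and bars the mean and SD of 3 arrays. In MMTV-neu and the 1:1 erbB2-positive fraction all Egfr minus Erbb2 values lie below those of the other 4 groups.

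The labels of the lines were set beside cell type markers. The luminal keratin Krt8 read 7.41 in Comma-D and 11.34 in MMTV-neu, and 10.76 and 11.28 in the 1:1 erbB2-negative and erbB2-positive fractions against 7.90 and 10.37 at 1:50. The basal keratin Krt14 read 10.98 in Comma-D and 7.43 in MMTV-neu. At 1:50 it read 11.61 in the erbB2-negative and 11.49 in the erbB2-positive fraction, against 10.98 and 9.70 at 1:1. Krt8 thus was high in the 1:1 erbB2-negative fraction, labelled normal, on all 3 arrays (SD 0.33), where Erbb3 was low. Krt8 was also high in the 1:50 erbB2-positive fraction (10.37), where Erbb3 was high (mean 8.72). Vim, which mesenchymal and cultured basal cells express, read 12.93 in Comma-D and 8.13 in MMTV-neu. The epithelial adhesion gene Epcam read 9.53 in Comma-D but 5.88 in MMTV-neu, under the olfactory receptor level there, and Cdh1 (E-cadherin) read 9.41 and 7.12. Of other cell types, Pecam1, Kdr, Tek and Emcn (4 of 8 endothelial markers), Ptprc, Adgre1, Csf1r, Itgam and Lyz2 (5 of 8 leukocyte markers), Lum and Fap (2 of 10 fibroblast markers) and Adipoq and Fabp4 (2 of 5 adipocyte markers) stood above that level in no group. All 12 basal and 9 of 12 luminal markers stood above it in every group. So did 7 of 10 fibroblast, 3 of 8 endothelial, 2 of 8 leukocyte and 2 of 5 adipocyte markers. Krt8 does not stand for the luminal list, which in MMTV-neu minus Comma-D had 5 of 12 genes called higher and 6 lower (median -0.41). Over the arrays of a group the luminal markers summed, on the linear scale, to 7801 to 8104 in Comma-D and to 5199 to 6077 in MMTV-neu. In the fractions that sum was 5740 to 6710 (1:1 erbB2-positive), 6302 to 8069 (1:1 erbB2-negative), 8133 to 9095 (1:50 erbB2-positive) and 7622 to 8304 (1:50 erbB2-negative). Summed on the linear scale over the arrays of a group, the 10 fibroblast markers lay between 9622 and 9921 in Comma-D and between 1664 and 1785 in MMTV-neu. They lay between 2444 and 3826 in the 1:1 erbB2-positive fraction and between 5612 and 10205 in the other 3 fractions. As single genes they moved both ways, with 5 called higher and 5 lower in MMTV-neu minus Comma-D (median -0.17) and 3 higher and 4 lower with the sort at 1:1 (median 0.12). The sum of the basal markers was 22021 to 22258 in Comma-D, 2233 to 2572 in MMTV-neu, 7414 to 12876 in the 1:1 erbB2-positive fraction and 18028 to 29976 in the other 3 fractions. The part of these markers in the receptor results was not tested.

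Genes with patterns most like each receptor over the 18 arrays are given as a description, since the arrays share their groups. For Egfr these were Stom (r = 0.981), Pltp (0.966), Urah (0.966), Sidt2 (0.964) and Tnfrsf22 (0.964), where Stom encodes the membrane protein stomatin and Pltp a phospholipid transfer protein. Stom read 8.70 in Comma-D, 7.36 in MMTV-neu, 8.78 in the 1:50 and 7.52 in the 1:1 erbB2-positive fraction. For Erbb3 these were Mafg (0.968), Plet1 (0.967), Ehf (0.964), Ildr1 (0.962) and St14 (0.96), where Ehf is an epithelial transcription factor and St14 the membrane protease matriptase. Ehf read 10.27 in Comma-D, 9.93 in both 1:50 fractions, 7.52 in MMTV-neu, and 7.78 and 7.59 in the 1:1 erbB2-negative and erbB2-positive fractions. For Erbb2 the likeness was weaker, with Zfp750 (0.923), Fstl4 (0.899), Rhbdf2 (0.897), Faah (0.879) and Vps37b (0.859), and Zfp750, a regulator of epidermal differentiation, read 6.99 and 7.07 in the 1:1 fractions and 7.60 to 8.35 elsewhere. For Erbb4 they were Strip2 (0.979), Zmynd12 (0.979), Mctp1 (0.978), Nek5 (0.978) and Gstt4 (0.977). Strip2 read 4.61 in Comma-D and 5.46 in MMTV-neu, a range close to that of the olfactory receptor genes. Among the receptors r was 0.80 between Erbb2 and Erbb3, 0.73 between Egfr and Erbb3 and 0.50 between Egfr and Erbb2 (n = 18). Erbb4, whose signal was at the olfactory receptor level, ran the other way, with r of -0.79 to Egfr, -0.74 to Erbb3 and -0.42 to Erbb2.

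**Figure D5:**
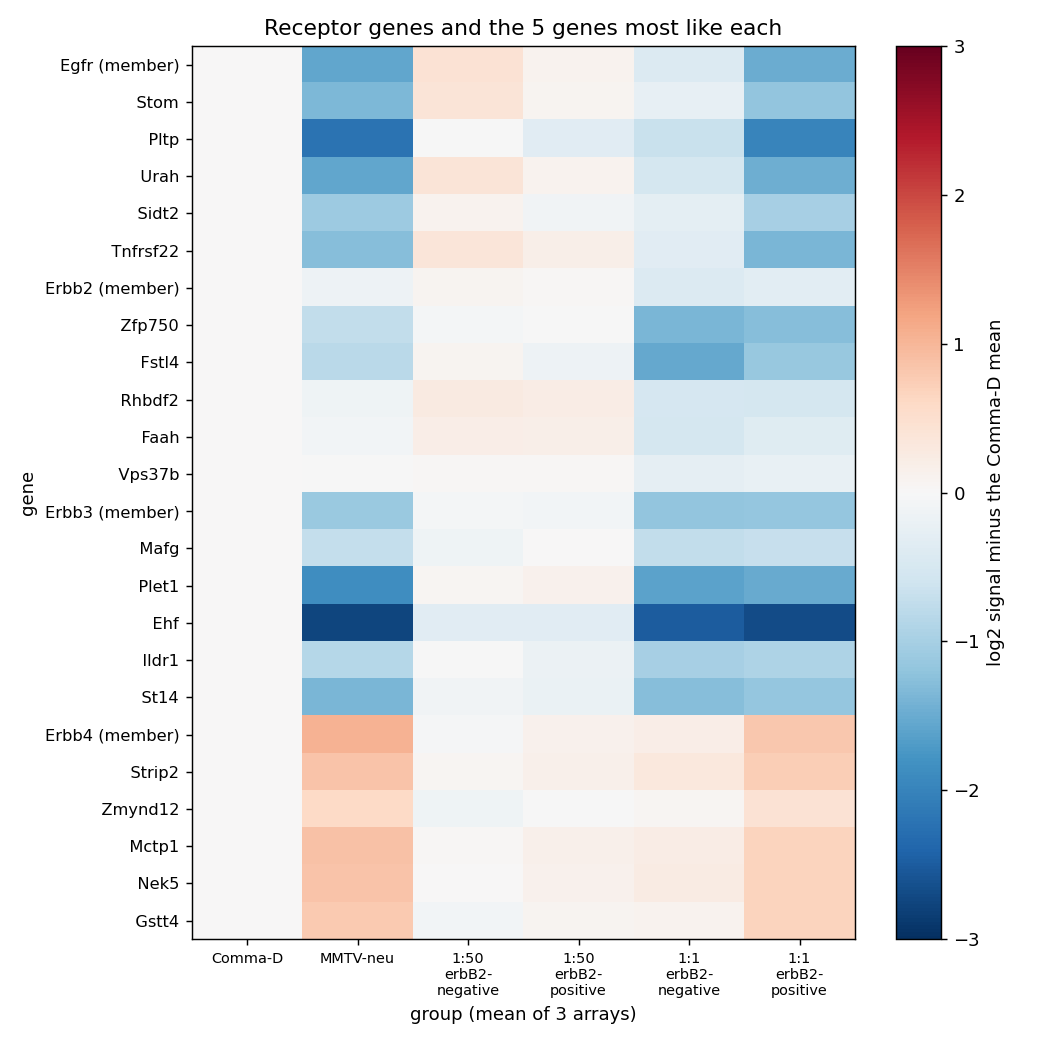
Mean log2 signal of each ERBB gene and of the 5 genes with the highest Pearson r to it over 18 arrays, minus the Comma-D mean of the same gene, by group (mean of 3 arrays). Blue is below and red above Comma-D. The Egfr lines are blue in MMTV-neu and the 1:1 erbB2-positive fraction, and the Erbb3 lines in MMTV-neu and both 1:1 fractions.

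Genes that act with the receptors were counted by role in MMTV-neu minus Comma-D, where the median of all genes was 0.40 and 86.8% of genes were called. Of all genes 56.4% were called higher and 30.4% lower. With centring these shares were 81.8% and 9.19%, and after quantile normalization 48.4% and 25.7%. Some lists read high. List means in Comma-D were 8.88 to 8.95 (adaptors and relay), 8.80 to 8.88 (inhibitors and turnover) and 9.64 to 9.68 (folding and trafficking). The median of all genes there was 6.35, so it is no comparator of like level. Reference genes, which also read high, went from 10.37 to 8.95. The part of signal level and array spread in the list differences was not tested. Of 10 ligand genes measured 6 were called higher and 2 lower, with a median of 0.47 (9 and 0 with centring, 6 and 2 after quantile normalization). The neuregulin gene Nrg2 rose by 1.16 (adjusted p = 1.99e-06), while Ereg, epiregulin, a ligand of Egfr, fell by 1.23 (adjusted p = 7.63e-05), turning to 0.20 with centring (adjusted p = 0.437). Ereg (6.16) lay under the olfactory receptor level in MMTV-neu. Nrg3, also among the largest called differences, lay under that level in both lines, at 5.07 in Comma-D and 6.04 in MMTV-neu. Of 25 adaptors and relay genes 4 were called higher and 16 lower, with a median of -0.58. Centring adds 1.42 to every gene in this comparison, which sets the counts to 14 higher and 6 lower (median 0.84, with 1.82 over all genes) and leaves the list median at -0.98 relative to that of all genes. After quantile normalization the counts were 10 and 11, and the median of 0.08 stood at -0.15 relative to that of all genes. Under all 3 scalings Pik3r1, the regulatory subunit of PI3K, Shc1, an adaptor that docks on active receptors, and the kinase gene Jak2 were called lower, with differences of -3.61, -3.16 and -2.79 as deposited and -2.19, -1.73 and -1.36 with centring.

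Of 23 inhibitors and turnover genes 3 were called higher and 18 lower (median -1.42), or 8 and 7 with centring (median 0.0065) and 4 and 15 after quantile normalization (median -1.05). Relative to the median of all genes, which is not of like level, the list median was -1.82 as deposited and -1.28 after quantile normalization. Centring cannot change the first of these values. Dusp6, a phosphatase of ERK, fell by 4.09, Errfi1, which blocks the kinase domain of ERBB receptors, fell by 3.47 and the receptor phosphatase gene Ptprk fell by 2.98 (adjusted p = 3.5e-11, 1.62e-12 and 1.96e-10), and all 3 were called lower under both other scalings. Of 13 folding and trafficking genes 12 were called lower and 1 higher (median -2.03), with 8 lower and 2 higher under centring (median -0.61). After quantile normalization 12 were called lower and 1 higher (median -1.30). Relative to the median of all genes the list lay at -2.43 as deposited, which centring cannot change, and at -1.53 after quantile normalization. Psenen, a subunit of the gamma-secretase that cleaves Erbb4, fell by 3.43, Adam10, a protease that sheds Erbb2 and ERBB ligands, fell by 3.23 and Erbin, which binds Erbb2, fell by 3.18 (adjusted p = 2.06e-09, 2.48e-08 and 6.71e-08). Of 14 genes that neighbour Erbb2 on its chromosome 9 were called higher and 3 lower (median 0.90), with 13 and 1 under centring and 11 and 1 after quantile normalization. Beside them stand 56.4%, 81.8% and 48.4% of all genes called higher under these 3 scalings, and 30.4%, 9.19% and 25.7% called lower. Tcap rose by 1.30 and Fbxl20 fell by 2.16 (adjusted p = 5.86e-06 and 3.78e-09). Tcap read 5.62 in Comma-D, close to the olfactory receptor level there (5.55). Neurod2 read 6.87 in MMTV-neu and 5.32 in Comma-D, under the olfactory receptor level there (adjusted p = 1.37e-06).

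Within the 1:1 co-culture, erbB2-positive minus erbB2-negative, the median of all genes was 0.16, and 35.2% of all genes were called higher and 21% lower. With centring these shares were 74.8% and 6.73% (median 0.83), and after quantile normalization 23.2% and 16.6% (median 0.09). The limit of unlike signal level given above holds here too, and its part was not tested. Of the ligand genes 3 were called higher and 0 lower, namely Nrg2 by 0.51, Egf by 0.44 and Tgfa by 0.40 (adjusted p = 0.0101, 0.0123 and 0.0374), where Egf and Tgfa encode ligands of Egfr. Egf read 6.39 and 5.95 in the erbB2-positive and erbB2-negative fractions, close to the olfactory receptor level of 6.22 and 5.76. In this comparison 322 of 1027 olfactory receptor genes were called higher too. After quantile normalization Egf was not called (0.24, adjusted p = 0.187), and 2 ligand genes were called higher and 1 lower. Of the adaptors 3 were called higher and 11 lower (12 and 5 with centring, 7 and 7 after quantile normalization). Of the inhibitors 4 were called higher and 15 lower (6 and 4 with centring, 2 and 12 after quantile normalization), with differences of -1.59 for Dusp6, -1.50 for Ptprk and -1.30 for Errfi1 (adjusted p = 3.1e-05, 1.13e-05 and 5.15e-06). Of the folding and trafficking genes 1 was called higher and 12 lower (1 and 4 with centring, 0 and 7 after quantile normalization). Of the neighbours of Erbb2 6 were called higher and 2 lower (12 and 0 with centring, 4 and 1 after quantile normalization). Within the 1:50 co-culture limma called 0 of the 84 distinct genes of these 5 lists under each of the 3 scalings, beside 2 genes called on the whole array as deposited. At an unadjusted p under 0.05 there were 10 of the 84 as deposited (11.9%, against 13.4% of all genes), 1 with centring (1.19% against 4.37%) and 2 after quantile normalization (2.38% against 4.98%).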

How the data were processed

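Total RNA from 18 mouse cell samples was measured on arrays, 3 in each of 6 groups. The deposited values are log2 signals per probe set, made by the authors with RMA, and R 3.1.2 and limma are also named, per the submitters' processing notes. The sources used here do not state the summary level, the filters or how control probe sets were treated. The table held 35556 probe sets with 0 missing values, of which 23410 were annotated, 21789 with 1 gene symbol and 1621 with several, and 12146 were not annotated. No symbol needed updating. Each of 19938 genes was represented by its single-gene probe set with the highest mean over the 18 arrays, and probe sets with several genes were left out of the gene tests. Arrays give no read depth, and their number limits the precision.

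Differences were tested in limma 3.58.1 (R 4.3.3) with 1 fit of all 18 arrays by group (12 residual degrees of freedom), eBayes and Benjamini-Hochberg adjustment over all genes, after a check on simulated data. No array was dropped or imputed. Intervals are 95% intervals. Alternatives were averaging the probe sets of each gene, each probe set alone, leaving out the lowest 40% of genes, eBayes with trend and robust, array weights, centring on 9 of 11 listed reference genes, quantile normalization, the replicate number as a block, fits of fewer arrays, adjusted p under 0.01 and leaving out each array. A block fit of the 12 co-culture arrays alone was chosen after seeing the data. Replicate numbers come from the titles. Deviations of same-numbered arrays from their group means correlated over 0.1 in every pair for 5 of 6 comparisons between fractions (for example 0.307 to 0.702 between the 1:50 fractions) but not for 1:1 erbB2-positive minus 1:50 erbB2-negative (0.0737 to 0.212), nor for any comparison with an unmixed line.

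Named genes were the 4 receptors, the 5 genes most like each by Pearson r (provisional symbols left out), up to 3 called genes with the largest differences per pathway list, and Krt8, Krt14, Epcam, Cdh1 and Vim. The other cell type markers named were chosen after their values were seen. The members and lists were chosen with earlier results of these data known. Promoter sequences come from RefSeq.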

Additional observations from a re-analysis of the deposited data

How the results depend on the processing

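Of 64 differences of the 4 receptors, all kept direction and call with the replicate block (2 receptors called for 1:50 erbB2-positive minus 1:1 erbB2-negative, as without it), as did 28 of 28 in the block fit of 12 arrays, a choice added after seeing the data, and 44 of 44 without MMTV-neu. Averaging probe sets or testing each alone cannot move these values, since each receptor has 1 probe set, and only adjusted p could change. The 40% filter removed Erbb4 and left 2 of 3 called for 1:50 erbB2-negative minus MMTV-neu and 1 for the 1:1 sort. For 1:50 erbB2-positive minus 1:1 erbB2-negative 1 receptor was called with trend and robust, at adjusted p under 0.01, with centring (0.311% of all genes) and after quantile normalization (0.522%), and 1 to 2 on leaving out arrays. Fits of only the compared arrays called 0 there, 0 between the erbB2-negative fractions (limma) and 1 for the 1:1 sort. Centring and quantile normalization each called 1 for 1:1 erbB2-negative minus Comma-D (45.4% and 15.6% of all genes) and 1 between the erbB2-negative fractions (30.2% and 4.52%). For the 1:1 sort centring called Erbb2, Erbb3 and Erbb4 (81.5%), and quantile normalization called Egfr, Erbb2 and Erbb4 (39.8%). For MMTV-neu minus Comma-D centring called Erbb2 and Erbb4 (91%), and quantile normalization called every receptor (74%). Centring called 2 for 1:1 erbB2-positive minus Comma-D (86.1% of all genes) and 1 for that fraction minus MMTV-neu (46.2%), where leaving out arrays gave 0 to 1 and array weights 1 (29.7%). Array weights, whose estimation stopped before its tolerance was reached, called 2 for the 1:50 sort (35.2% of all genes) and 2 for the difference between sorts (69.8%). Counts without such a share cannot be read against a background. Directions turned with array weights for 1:50 erbB2-positive minus Comma-D (Egfr -0.27, Erbb3 0.18, Erbb4 -0.0029), Egfr in 1:1 erbB2-positive minus MMTV-neu (-0.063), the 1:50 sort (Erbb2 0.097, Erbb3 0.25) and the difference between sorts (Erbb2 0.036, Erbb3 0.19). With centring they turned for MMTV-neu (Erbb2 1.28, Erbb3 0.31), 1:1 erbB2-negative (Egfr 0.0042, Erbb2 0.015), 1:50 erbB2-positive (Erbb3 0.17) and 1:1 erbB2-positive (Erbb2 0.76) minus Comma-D. Against MMTV-neu they turned for 1:50 erbB2-negative (Erbb2 -1.18, Erbb3 -0.34), 1:50 erbB2-positive (Erbb2 -1.01, Erbb3 -0.15) and 1:1 erbB2-positive (Egfr -0.25). Between fractions they turned for the 1:50 sort (Erbb2 0.17, Erbb3 0.20), the erbB2-positive fractions (Erbb2 -0.49) and 1:1 erbB2-positive minus 1:50 erbB2-negative (Erbb2 0.66). Quantile normalization turned Erbb2 in MMTV-neu minus Comma-D (0.52), 1:1 erbB2-positive minus Comma-D (0.22), the 1:50 fractions minus MMTV-neu (-0.47 erbB2-negative, -0.36 erbB2-positive), the 1:50 sort (0.11), the erbB2-positive fractions (-0.054) and 1:1 erbB2-positive minus 1:50 erbB2-negative (0.17), and Erbb3 in 1:50 erbB2-positive minus Comma-D (0.11) and the 1:50 sort (0.15). Leaving out single arrays turned 21 of 408 values, none of a called difference, with ranges of -0.14 to 0.020 (Erbb3) and -0.069 to 0.013 (Erbb4) for 1:50 erbB2-negative minus Comma-D, and of -0.10 to 0.31 (Egfr), -0.043 to 0.087 (Erbb2) and -0.21 to 0.13 (Erbb3) for 1:50 erbB2-positive minus Comma-D. Against MMTV-neu they were -0.15 to 0.0094 (Erbb3, 1:1 erbB2-negative), -0.054 to 0.17 (Egfr) and -0.18 to 0.11 (Erbb3, both 1:1 erbB2-positive). For Erbb3 they were -0.16 to 0.18 (1:50 sort), -0.10 to 0.19 (1:1 sort) and -0.21 to 0.15 (difference between sorts), and for Erbb4 -0.16 to 0.033 (1:50 erbB2-positive minus 1:1 erbB2-negative). The cause of these changes was not tested. Erbb4 is limited by its signal, which did not stand above that of olfactory receptor genes.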
